A study of Homo sapiens with 95 samples.

Results

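The genes described here are the AP-1 subunit genes FOS, FOSB, FOSL1, FOSL2, JUN, JUNB and JUND, with the early response genes EGR1, IER3 and MYC. These 10 genes were taken by symbol from the count table of each of 95 samples, which listed 27978 genes. Of the 10, 9 had reads and were tested, and IER3 was listed at 0 throughout. AP-1 is a transcription factor built from a Fos and a Jun protein, or from Jun proteins alone, joined by leucine zippers. Growth factors, stress and many chemicals act through MAP kinases on factors that already sit at these genes, so that FOS and EGR1 are transcribed quickly and without new protein synthesis. In airway epithelium the same genes are known for their response to wounding, growth factors and smoke constituents, and MYC, a factor that drives growth and ribosome production, also belongs to the early response.

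All samples were AALE cells, a line of immortalized human bronchial epithelial cells, profiled by sparse full length (SFL) RNA sequencing, in which barcoded cDNA of many samples is pooled before sequencing. The samples crossed 8 lines with 4 treatments, with 3 samples in 31 of the 32 combinations and 2 samples (replicates 2 and 3) in FGFR1 cells given CSC. The lines NRF2 (the gene NFE2L2), FGFR1, NRG1 and PIK3CA overexpressed the named gene and had as control a line with an empty vector that carried the reporter HcRed. The lines FAT1 and CDKN2A were CRISPR knockouts, and their control, GFP, had received the pSpCas9-EGFP plasmid with no guide RNA. The treatments were cigarette smoke condensate (CSC, 24 μg/ml), benzo[a]pyrene (BaP, 173 μM), the tobacco nitrosamine NNK (490 μM) and DMSO. The length of exposure, and whether a line was a single clone, were not given in the sources used here. The study describes the samples of a combination as biological replicates, but how the cultures were kept apart was not stated. The p-values thus rest on the spread between these samples, part of which may be technical. The limma-voom fits also draw each gene's spread toward that of all genes. A standard error (SE) can therefore be smaller than a gene's own samples would give.

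The libraries held 287446 to 2116383 counted reads (median 934235), and the median was 1051107 with DMSO, 825587 with CSC, 836087 with BaP and 753702 with NNK. In each of the 6 perturbed lines the named gene was above (overexpression) or below (knockout) its control in every sample, with no overlap. The airway basal markers (8 of 8 with reads in every sample) summed to between 4192 and 11750 CPM (counts scaled to a common library total). The CPM of the marker lists used the plain totals, and that of the members used totals adjusted by the TMM scaling named under processing. Of the fibroblast markers, COL1A2 was at 0 in 80 samples, PDGFRB in 77 and LUM in 87, and the list summed to between 8.06 and 34.4 CPM with DMSO, 13.7 and 56.7 with CSC, 12.5 and 71.4 with BaP and 11.5 and 51.3 with NNK, most of it COL1A1. The leukocyte list, most of it CD68, summed to between 4.70 and 17.0 CPM with DMSO, 3.47 and 37.6 with CSC, 0 and 32.1 with BaP and 2.74 and 22.8 with NNK, while CD3E was at 0 in all 95 samples and PTPRC in 90. The part of these list levels and of the depth in the results was not tested, except for some fits without the 9 libraries under 500000 reads. These were the comparisons of chemicals over all lines and of lines over all treatments, and the line by treatment term. In bulk RNA, fewer cells that express a gene and less of its RNA per cell cannot be told apart.

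Per kilobase of exon, the genes of the set spanned more than 2 orders of magnitude in the 24 DMSO samples. JUND stood highest at a median of 42.2 CPM per kb (range 26.4 to 58.9), followed by JUNB at 38.3 (21.7 to 49.1) and EGR1 at 35.2 (7.09 to 77.8). MYC was at 15.8 (4.27 to 28), FOSL2 at 15.7 (11.5 to 23.8) and JUN at 11.3 (5.98 to 15.8). FOSL1 at 4.95 (0.941 to 16.1) and FOS at 4.73 (2.11 to 6.69) were low, and FOSB was lowest at 0.262 (0 to 0.830). The ranges of neighbours in this order overlapped, so their order is not set beyond the spread, except that every FOS value was above every FOSB value. With CSC, EGR1 led at a median of 145 CPM per kb (50.3 to 181), ahead of JUNB at 96.3 (50.7 to 114), and with NNK EGR1 was at 172 (57.1 to 261) and JUND next at 74.5 (56.2 to 112), again with overlapping ranges.

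FOSB was sparse and IER3 had no reads. FOSB, a Fos family member, had 250 reads in all samples together and at most 9 in any sample. Its annotated span overlaps that of ERCC1 on the other strand (3731 reads). The span of JUNB likewise overlaps HOOK2 (3455 reads) and that of MYC overlaps CASC11 (10 reads). Whether exons of these pairs overlap was not checked, and the strand setting of the counting was not given. It is therefore not known whether reads of such pairs were mixed. IER3, an early gene linked to cell survival, lies at chr6:30710976-30712325 (GRCh37, minus strand) in the major histocompatibility complex. Its neighbours FLOT1, ABCF1, GNL1, DHX16 and MDC1, genes used widely by cells, were also at 0 in all 95 samples, whereas DDR1 in the same stretch had 799 reads. The 0 of IER3 is therefore given only as listed, and no level or fold is drawn from it.

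The 250 bases before the start of EGR1 and FOS, the members with the largest rises described next, and of JUN and JUND, Jun genes with smaller ones, are shown 5′ to 3′ on the strand of the gene, from RefSeq on GRCh38.p14. Promoter entries of 7 members were used. FOSL1 and IER3 were not matched. MYC was not searched, since member entries on its chromosome (8) were left out. Capitals mark every match, on either strand, to the motifs searched: the AP-1 site TGANTCA, the cAMP response element TGACGTCA, the looser site TGANNTCA (which contains it), the shorter core TGACG (contained in the element), the serum response (CArG) box, the TATA box TATAAA, the xenobiotic response element core GCGTG, the E-box CACGTG and the EGR site GCGNGGGCG. The windows are EGR1 at chr5:138465229-138465478 (plus strand), FOS at chr14:75278578-75278827 (plus), JUN at chr1:58784048-58784297 (minus) and JUND at chr19:18281623-18281872 (minus).
EGR1: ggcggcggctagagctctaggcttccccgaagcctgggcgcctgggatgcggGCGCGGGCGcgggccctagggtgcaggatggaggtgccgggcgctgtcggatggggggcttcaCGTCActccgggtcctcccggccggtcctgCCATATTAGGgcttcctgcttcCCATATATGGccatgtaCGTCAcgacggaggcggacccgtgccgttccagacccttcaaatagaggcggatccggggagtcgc
FOS: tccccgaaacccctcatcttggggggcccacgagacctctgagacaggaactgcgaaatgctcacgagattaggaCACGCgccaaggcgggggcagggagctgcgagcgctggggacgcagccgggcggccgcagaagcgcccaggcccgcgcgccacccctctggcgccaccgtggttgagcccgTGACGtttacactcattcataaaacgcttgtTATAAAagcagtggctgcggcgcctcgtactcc
JUN: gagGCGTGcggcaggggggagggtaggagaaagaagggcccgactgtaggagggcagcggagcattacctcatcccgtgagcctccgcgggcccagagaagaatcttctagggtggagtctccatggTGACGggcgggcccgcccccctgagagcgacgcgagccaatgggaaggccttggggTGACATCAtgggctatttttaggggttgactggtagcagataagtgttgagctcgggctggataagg
JUND: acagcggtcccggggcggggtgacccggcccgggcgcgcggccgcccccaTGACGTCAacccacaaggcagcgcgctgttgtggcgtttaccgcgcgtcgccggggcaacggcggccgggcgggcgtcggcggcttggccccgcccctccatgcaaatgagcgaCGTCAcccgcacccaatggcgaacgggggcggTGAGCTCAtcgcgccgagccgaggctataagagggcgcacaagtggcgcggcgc

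The core TGACG was found in all 7 member promoters searched and in 21.2% of the 35116 promoters of the same length. Within these 250 bases, EGR1 alone among the 7 held CArG boxes, the first beginning 105 and the second 83 bases before the start. Of all promoters 1.16% held any. Sequence further upstream was not searched, so a motif not found here may lie beyond the window in any member. The TATA box was found in FOS, FOSB and JUNB (10.7% of all promoters), in FOS 33 to 28 bases before the start. GCGTG was found in FOS, JUN and JUNB (32.2% of all), the full cAMP response element in JUND (1.65%), and TGANTCA and CACGTG in none of the 7 (6.57% and 6.34% of all). These are matches of letters and not sites known to be bound.

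Over the 8 lines, all 9 tested genes rose with CSC and with BaP, and 8 of the 9 rose with NNK (limma-voom, adjusted p under 0.05 over all genes, line as a factor). Of all 14384 genes tested, 28% rose with CSC, 26.1% with BaP and 26.1% with NNK, so a rise alone was common. FOS ranked 10, 8 and 3 among all genes by its log2 fold change with CSC, BaP and NNK, and EGR1 ranked 15, 9 and 4. The 3 comparisons share the same 24 DMSO samples, and no difference between the chemicals was tested.

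EGR1 (chr5:137801168-137804992, GRCh37) encodes a zinc finger factor that serum and stress induce within the early wave. It lay between 22.2 and 244 CPM with DMSO (median 110, n = 24), between 158 and 569 with CSC (454, n = 23), between 137 and 641 with BaP (452, n = 24) and between 179 and 819 with NNK (539, n = 24). The 9 treated samples within the DMSO range were all of the GFP line, and within each line every treated sample was above every DMSO sample. The log2 fold change was 1.97 ± 0.08 (SE, adjusted p = 5.92e-51) with CSC, 1.99 ± 0.08 (3.69e-51) with BaP and 2.34 ± 0.07 (1.05e-59) with NNK, the last being 5.07-fold.

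FOS (chr14:75745529-75748933), the founding Fos subunit of AP-1, was scarce with DMSO at 6.72 to 21.3 CPM (median 15.1), which rested on 7 to 27 reads per sample. It was at 28.5 to 89.0 CPM with CSC (median 61.5), 16.8 to 108 with BaP (59.2) and 40.9 to 119 with NNK (73.6). With CSC and with NNK every sample was above all 24 DMSO samples, and with BaP the ranges overlapped. The log2 fold change was 2.10 ± 0.10 with CSC (adjusted p = 1.76e-39), 2.01 ± 0.11 with BaP (8.49e-37) and 2.34 ± 0.10 with NNK (5.31e-44). EGR1 and FOS kept their calls under each of the 13 alternative fits per chemical.

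**Figure D1:**
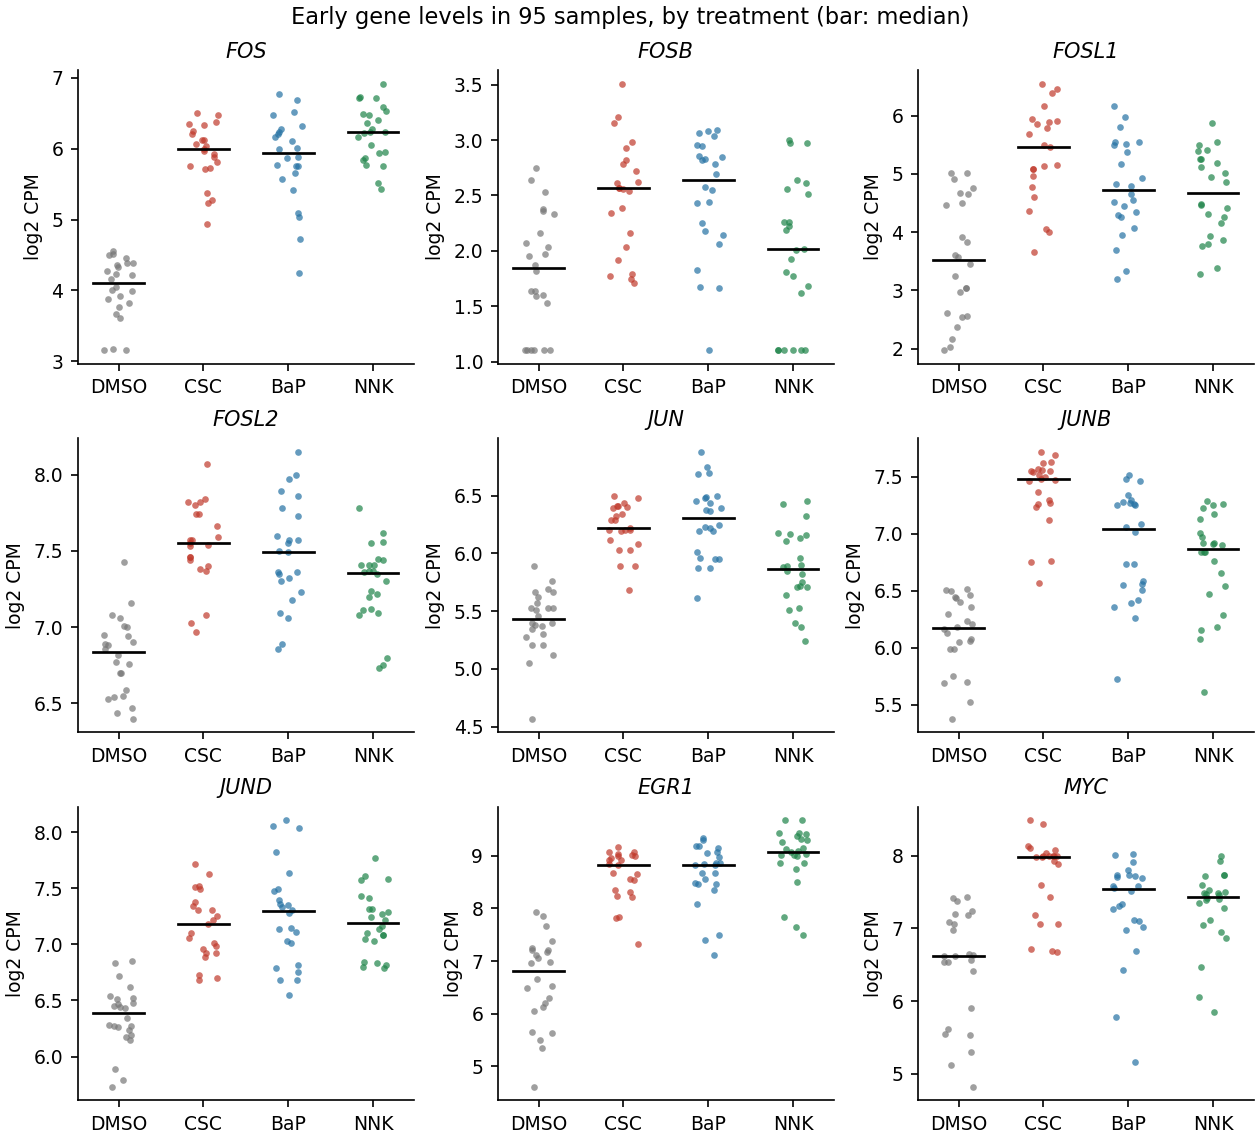
Level of each of the 9 genes with reads, in log2 CPM (prior count 2), in the 24 DMSO, 23 CSC, 24 BaP and 24 NNK samples; each point is a sample, the bar is the median, and each panel has its own axis. FOS separates fully between DMSO and CSC or NNK, whereas FOSB overlaps throughout and its lowest row of points are samples at 0 reads.

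The other Fos genes rose less. FOSL1 (chr11:65659520-65668044), which encodes Fra-1, a subunit tied to migration of epithelial cells, ranged from 1.78 to 30.4 CPM with DMSO (median 9.33), 10.5 to 91.6 with CSC (42.2), 7.07 to 69.5 with BaP (24.3) and 7.55 to 56.4 with NNK (23.5). The ranges overlapped, but within every line all treated samples were above all DMSO samples. Its log2 fold change was 1.89 ± 0.13 with CSC, 1.27 ± 0.14 with BaP and 1.12 ± 0.14 with NNK. FOSL2 (chr2:28615315-28640184), which encodes Fra-2, had a median of 112 CPM with DMSO (82.0 to 171), 185 with CSC (123 to 267), 178 with BaP (114 to 282) and 162 with NNK (104 to 218). Its log2 fold changes were 0.75 ± 0.05, 0.68 ± 0.05 and 0.47 ± 0.05, small against those of FOS but with narrow errors. FOSB rose with CSC (1.24 ± 0.25) and BaP (1.31 ± 0.26), and with NNK its value of 0.56 ± 0.28 did not pass (adjusted p = 0.0828), all on 0 to 9 reads per sample.

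The Jun genes rose by less than FOS and EGR1. JUN (chr1:59242517-59249720), which encodes c-Jun, had a median of 41.0 CPM with DMSO (21.7 to 57.2), 72.4 with CSC (49.0 to 88.6), 77.3 with BaP (46.6 to 116) and 56.2 with NNK (35.7 to 85.4). Its log2 fold change was 0.86 ± 0.07 with CSC, 0.89 ± 0.07 with BaP and 0.47 ± 0.08 with NNK. JUNB (chr19:12902300-12904129), whose protein often restrains c-Jun, was at a median of 70.1 CPM with DMSO (39.6 to 89.9), 176 with CSC (92.8 to 208), 130 with BaP (50.8 to 182) and 115 with NNK (46.7 to 154). Every CSC sample was above every DMSO sample, and the other ranges overlapped. Its log2 fold changes were 1.25 ± 0.06, 0.79 ± 0.07 and 0.66 ± 0.07. JUND (chr19:18390504-18392432), the Jun gene often described as constitutively expressed, was at 81.5 CPM with DMSO (51.0 to 114), 143 with CSC (101 to 208), 155 with BaP (91.2 to 273) and 144 with NNK (108 to 216), and its log2 fold changes were 0.84 ± 0.06, 0.92 ± 0.06 and 0.83 ± 0.06.

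The rises of JUND and JUNB depended on a correction for base composition. The exons of JUND are 69.9% G and C and those of JUNB 64.9%, whereas the other tested members lie between 51.7% and 59.5%. When the trend of each sample's counts with GC content and exon length was removed, the genes called in either direction went from 7922 of 14384 to 4518 of 13487 with CSC, from 7337 to 3347 with BaP and from 7455 to 2362 with NNK. JUND then changed by 0.11 with CSC (adjusted p = 0.0713, no longer called), 0.26 with BaP and 0.20 with NNK. JUNB changed by 0.70, 0.29 and 0.19 and stayed called. EGR1 kept 1.74, 1.77 and 2.13, FOS 1.93, 1.85 and 2.18, and FOSL1 1.52, 0.94 and 0.82, all called. FOSL2 kept 0.57, 0.51 and 0.28, and JUN 0.63, 0.67 and 0.26, also called, while FOSB kept 0.94 and 1.01 with CSC and BaP.

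**Figure D2:**
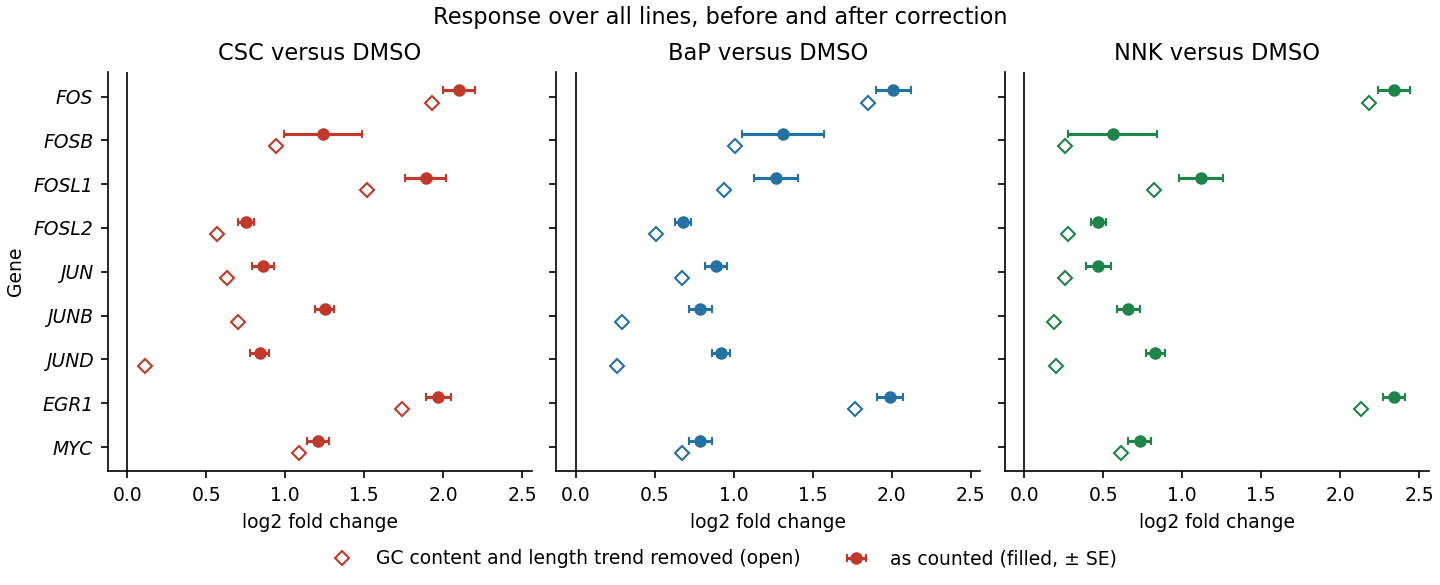
Log2 fold change of each gene with CSC, BaP and NNK against DMSO over all lines, as counted (filled, with SE) and after the trend with GC content and exon length was removed (open, no error drawn). JUND and JUNB move furthest toward 0, JUND to 0.11 with CSC, while FOS and EGR1 stay at or above 1.74.

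MYC (chr8:128747680-128755197) rose with each chemical. It was at 26.1 to 171 CPM with DMSO (median 96.5), 99.7 to 359 with CSC (251), 33.6 to 258 with BaP (183) and 55.5 to 252 with NNK (171), and its ranges overlapped. The log2 fold change was 1.21 ± 0.07 with CSC (adjusted p = 4.90e-35), 0.79 ± 0.07 with BaP (5.27e-19) and 0.73 ± 0.07 with NNK (6.33e-17). After the correction for GC content and length the values were 1.09, 0.67 and 0.61, all called.

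Within single lines, every call among the members was a rise (3 treated against 3 DMSO samples, except 2 against 3 in FGFR1 cells with CSC). Of the member tests over the 8 lines, 64 of 72 passed with CSC, 58 of 72 with BaP and 53 of 70 with NNK, where rises made up 8.59%, 5.34% and 5.6% of the tests of all genes. In single lines that share lay between 4.88% and 12.7% with CSC, 2.67% and 9.73% with BaP, and 3.03% and 9.87% with NNK. EGR1 and FOS passed in all 8 lines with each chemical and also after the correction for GC content and length. The response of EGR1 was largest in FAT1 cells with each chemical (2.83 with CSC, 2.80 with BaP, 3.02 with NNK), and the smallest were 1.20 with CSC in CDKN2A cells and 1.55 with BaP and 1.74 with NNK in NRG1 cells. FAT1 cells differed from GFP cells in this response by 0.25 ± 0.30, 0.63 ± 0.31 and 0.47 ± 0.31, none called (limma-voom, adjusted p = 0.89, 0.898 and 0.821). NRG1 cells differed from HcRed cells by -0.56 ± 0.20 with BaP and -0.84 ± 0.20 with NNK, also not called (adjusted p = 0.695 and 0.213). JUN passed in 7, 6 and 4 lines with CSC, BaP and NNK, and by DESeq2 in 5, 6 and 0. DESeq2 also took FOSL1 from 8, 6 and 6 lines to 7, 1 and 0. JUNB went from 8, 7 and 7 to 8, 4 and 3, and FOSL2 from 8, 8 and 6 to 8, 6 and 4. JUND went from 8 with each chemical to 7, 7 and 8, while EGR1, FOS and MYC kept their counts. FOSB passed in 1 line with CSC and in 1 with BaP by limma-voom, in 1 and 0 by edgeR, and in neither by DESeq2 or after the correction. With NNK it passed in none by limma-voom, edgeR or DESeq2 (0 lines at an unadjusted p under 0.05). With the GC content and length trend removed, the calls with BaP fell from 58 to 37 and those with NNK from 53 to 24. The share of all genes that rose in single lines was then 0.559% to 1.64% with BaP and 0.277% to 0.789% with NNK. With NNK, JUNB went from 7 lines to 0 (3 at an unadjusted p under 0.05), JUN from 4 to 0 (3), and FOSL1 and FOSL2 from 6 to 1 each, and with BaP JUNB went from 7 to 2 and FOSL1 from 6 to 1. JUND, which had passed in all 24 tests by limma-voom as counted, passed in 1 line with BaP and in none with CSC or NNK (3, 0 and 2 lines at an unadjusted p under 0.05).

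**Figure D3:**
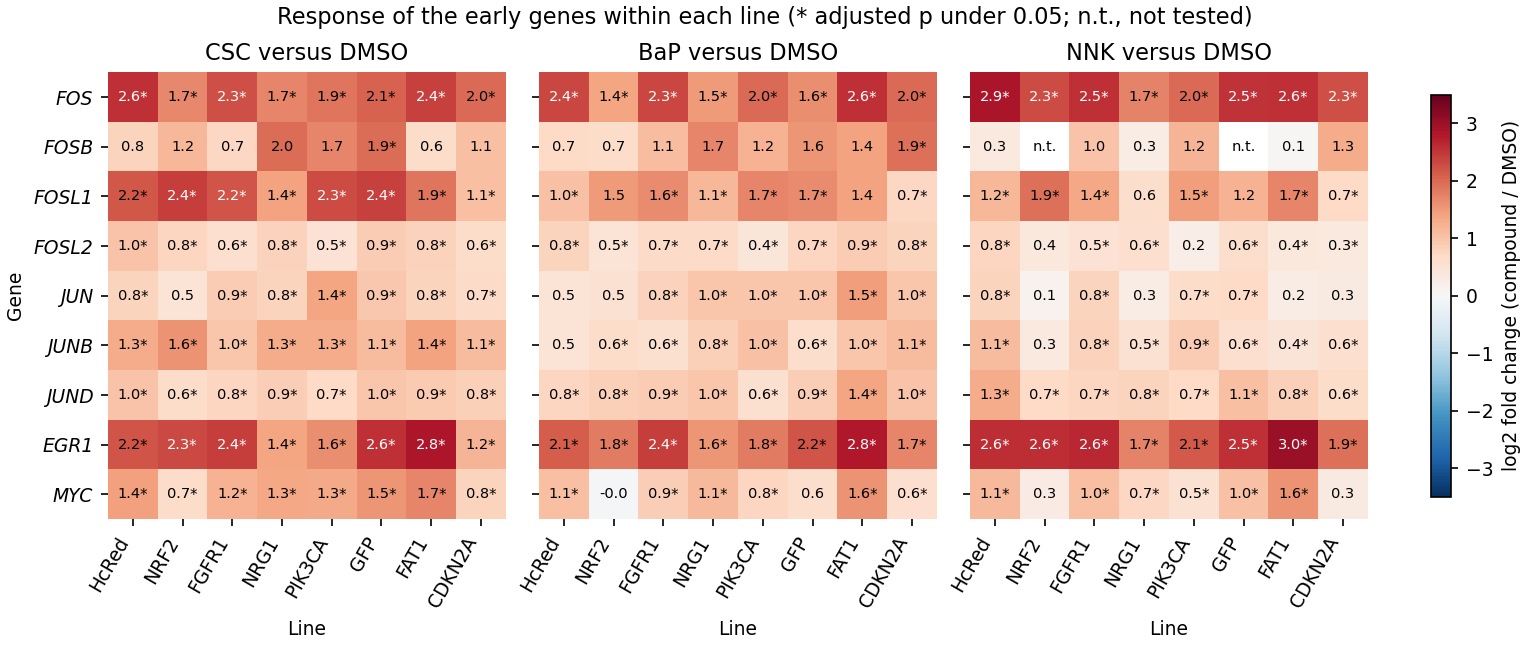
Log2 fold change of each gene with CSC, BaP and NNK against DMSO within each of the 8 lines; an asterisk marks adjusted p under 0.05 in limma-voom, and n.t. marks FOSB where its mean count was too low to test. Rows of EGR1 and FOS are dark and called throughout, and MYC in NRF2 cells with BaP is near 0 at -0.04.

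The size of the response differed among lines for 4 of the 9 tested members, by the line by treatment term fitted over all samples, while 2.36% of all genes passed that test. They were EGR1 (F = 6.28, adjusted p = 1.74e-08), MYC (5.96, 5.55e-08), JUNB (3.75, 4.06e-04) and JUN (3.51, 0.00108). FOS did not pass (F = 1.36, adjusted p = 0.513). The JUN term was lost without replicate 2 (adjusted p = 0.118) or replicate 3 (0.198) and the JUNB term without replicate 2 (0.102). JUND passed with edgeR (adjusted p = 0.0239).

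MYC in NRF2 cells was the clearest case. With DMSO its level was 168, 149 and 171 CPM in NRF2 cells and 93.0, 90.7 and 96.4 in HcRed cells, with no overlap. With BaP it was 180, 156 and 137 CPM in NRF2 cells and 187, 207 and 190 in HcRed cells, and with CSC 233, 253 and 278 against 253, 273 and 241. The lines thus differed with DMSO, overlapped with CSC, and with BaP the NRF2 samples were the lower. The response of MYC to BaP was 1.06 ± 0.13 in HcRed cells and -0.04 ± 0.11 in NRF2 cells, a difference of -1.10 ± 0.19 (limma-voom, adjusted p = 2.91e-04, 0.111% of all genes called). For CSC the responses were 1.44 ± 0.12 and 0.65 ± 0.10, a difference of -0.80 ± 0.19 (adjusted p = 0.0412, 0.111% called). With NNK, MYC was at 210, 210 and 182 CPM in NRF2 cells, all above their DMSO samples, a response of 0.29 ± 0.12 that did not pass (adjusted p = 0.113). The difference from HcRed cells with NNK was -0.84 ± 0.21, as large as that with CSC, and did not pass (adjusted p = 0.256).

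EGR1 in CDKN2A cells was the other. With DMSO it was 142, 122 and 145 CPM in CDKN2A cells and 22.2, 43.2 and 38.8 in GFP cells. With CSC it was 301, 321 and 295 CPM against 224, 225 and 158, so the CDKN2A samples were higher with both treatments but by less with CSC. The response to CSC was 1.20 ± 0.11 in CDKN2A cells and 2.56 ± 0.18 in GFP cells, a difference of -1.39 ± 0.28 (limma-voom, adjusted p = 0.00439, 0.167% of all genes called). With BaP and NNK the differences were -0.50 ± 0.28 and -0.61 ± 0.28 and did not pass (adjusted p = 0.913 and 0.488). The difference of each pair comes from the fit over all samples and was not refitted under the alternatives. Each response uses its own line's DMSO samples, and each pair was singled out after the values were seen.

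**Figure D4:**
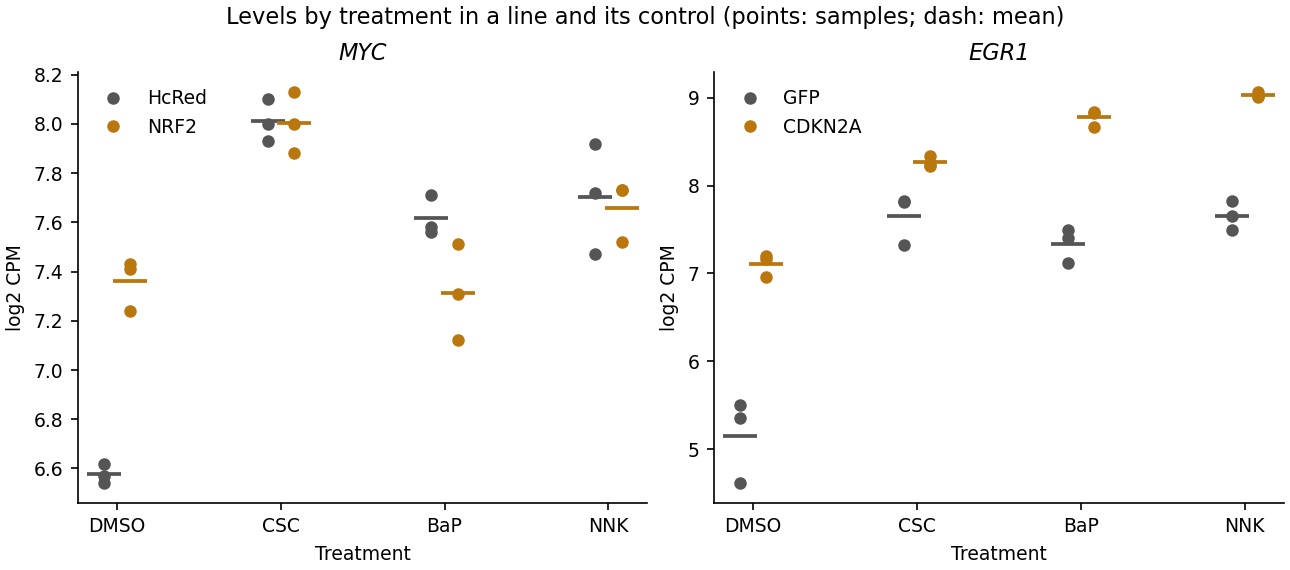
MYC in HcRed and NRF2 cells and EGR1 in GFP and CDKN2A cells, in log2 CPM by treatment; points are the 3 samples of each combination and dashes their means. The lines stand apart with DMSO, MYC overlaps with CSC and NNK, and EGR1 stays higher in CDKN2A than in GFP cells at every treatment.

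With DMSO alone, CDKN2A cells had the strongest contrast with their control. Of the 9 members tested, 5 were higher than in GFP cells and none was lower, with 37.2% of all genes called in either direction (limma-voom on 3 against 3 samples). MYC was 143, 144 and 164 CPM against 26.1, 32.7 and 44.2, a log2 fold change of 2.09 ± 0.16 (adjusted p = 4.90e-18) or 4.26-fold. EGR1, at the levels given above, was 1.97 ± 0.17 higher (adjusted p = 2.73e-16). FOSL1 was 22.9, 20.5 and 28 CPM against 1.93, 5.76 and 10.1, or 2.06 ± 0.40 (adjusted p = 2.34e-05). None of these 3 genes overlapped between the lines, and each kept its call in all 15 alternative fits. JUNB (0.72 ± 0.16) and FOSL2 (0.49 ± 0.12) were also higher, JUNB losing its call after the correction for GC content and length (0.29, adjusted p = 0.133). FOS was at 11.4, 16.4 and 12.6 CPM against 6.77, 6.72 and 10.1, and its 0.69 ± 0.36 did not pass (adjusted p = 0.133).

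In FAT1 cells with DMSO, 4 members were higher than in GFP cells (26.3% of all genes called in either direction). They were FOSL2 at 0.59 ± 0.13 (adjusted p = 5.01e-04), JUNB at 0.64 ± 0.16 (0.0026), FOS at 0.96 ± 0.35 (0.0371) and EGR1 at 0.60 ± 0.20 (0.0235). FOS was 13.7, 21.3 and 14.3 CPM and EGR1 47.3, 63.9 and 48.1, each above all 3 GFP samples. FOSL2 kept its call in 15 of 15 alternatives, whereas FOS kept it in 8 and EGR1 in 9, both being lost with DESeq2 (adjusted p = 0.167 and 0.154) or without FAT1 replicate 2 (0.157 and 0.120) or GFP replicate 1 (0.109 and 0.242), and FOS also without GFP replicate 2 (0.106) and EGR1 in the fit of all 95 samples (0.0773). After the correction for GC content and length only FOSL2 was called, JUNB standing at 0.32 (adjusted p = 0.138).

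The 2 control lines were themselves unlike. GFP cells had less EGR1 (-1.56 ± 0.20, adjusted p = 1.23e-09) and less MYC (-1.44 ± 0.18, 4.20e-10) than HcRed cells with DMSO, and no value of either gene overlapped. JUNB was lower too (-0.49 ± 0.17, adjusted p = 0.0364), a call lost after the correction (0.329) and without GFP replicate 1 (0.158) or HcRed replicate 1 (0.281) or 3 (0.0680). JUND was higher only after the correction (0.63, adjusted p = 6.62e-04; 0.33 as counted, 0.120), and FOS was called lower without HcRed replicate 1 (-1.30, 0.0152). Of all genes 17.7% were called in either direction. The vector, the delivery and the handling of these lines cannot be told apart, and a level set across the overexpression and knockout arms carries this difference.

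Among overexpression lines with DMSO, between 0 and 2 members were called against HcRed cells. NRG1 encodes a ligand of the ERBB receptors, and in its line EGR1 was 200, 244 and 149 CPM against 68.0, 137 and 124 (0.95 ± 0.13, adjusted p = 2.25e-10) and FOSL1 30.4, 30.4 and 19.9 against 12.1, 13.0 and 8.85 (1.25 ± 0.32, 0.00933), where 2.04% of all genes were called in either direction. No value overlapped in either gene. Neither was called with DESeq2 (adjusted p = 0.695 and 0.297), and FOSL1 was also lost without HcRed replicate 1 or 3 or NRG1 replicate 1 and in the fit of all 95 samples (0.0797). In PIK3CA cells EGR1 was 229, 165 and 145 CPM (0.78 ± 0.14, adjusted p = 6.04e-05, 8.6% of all genes called), lost with DESeq2 (0.472) and without HcRed replicate 1 (0.0911), the sample at 68.0 CPM. The log2 CPM of EGR1 with DMSO had a standard deviation of 0.35 in NRG1, 0.34 in PIK3CA and 0.53 in HcRed samples. The SEs of EGR1 in these limma-voom fits are smaller than that spread alone would give. FOSL1 in PIK3CA cells was 24.7, 23.5 and 3.77 CPM, and without the low replicate 3 it was called (1.07, adjusted p = 0.0237), as was MYC (0.48, 0.0103).

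In NRF2 cells MYC alone was higher with DMSO (0.79 ± 0.12, adjusted p = 1.71e-06, 7.16% of all genes called). FOSL1 was 2.32 to 6.14 CPM, below every HcRed sample, and its -1.38 ± 0.51 did not pass (adjusted p = 0.0843), though it did after the correction (0.0461). Without HcRed replicate 1, EGR1 was called lower in them (-0.56, adjusted p = 0.0114). In FGFR1 cells no member was called by limma-voom, edgeR or DESeq2, 2 having an unadjusted p under 0.05, where 1.86% of all genes were called.

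**Figure D5:**
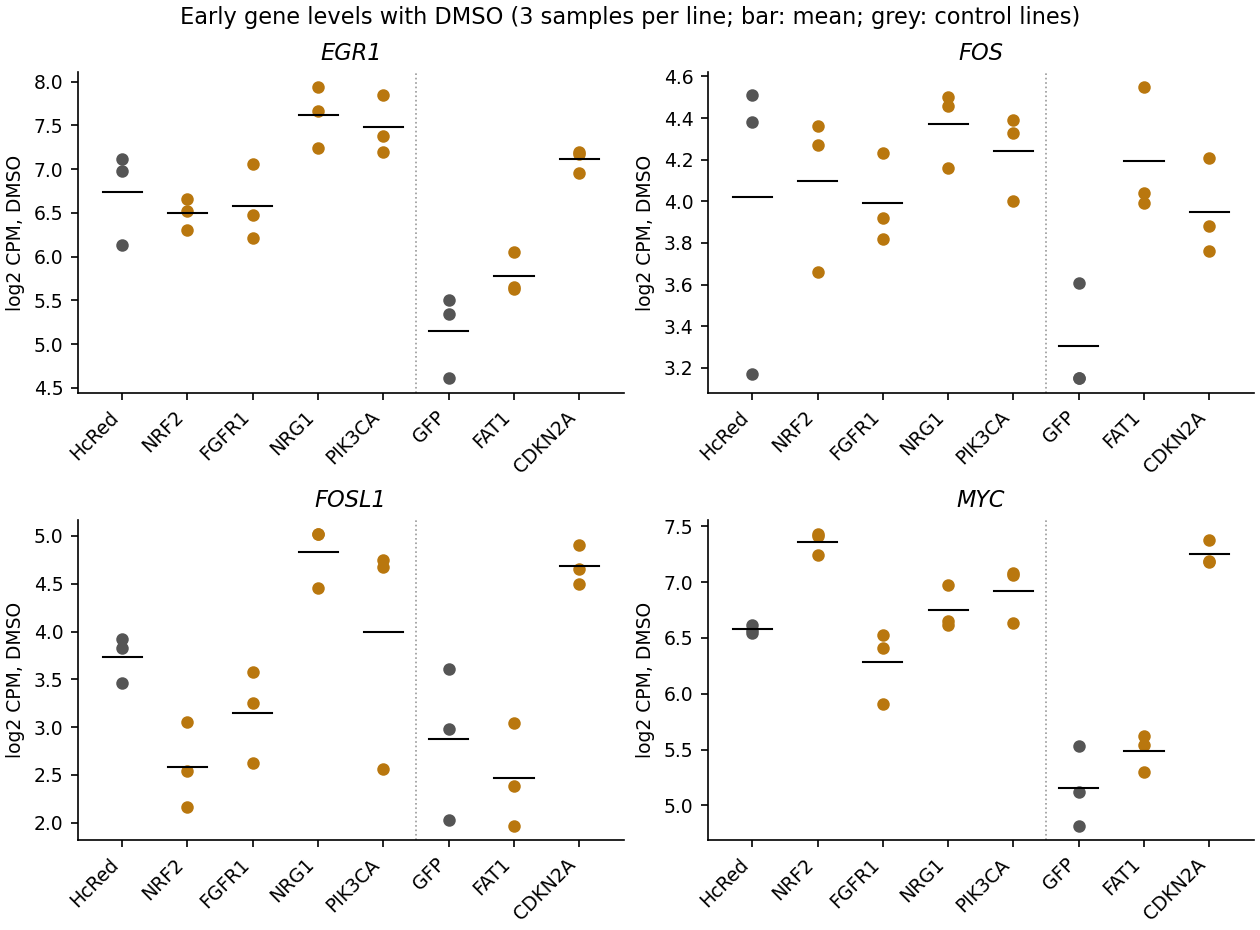
EGR1, FOS, FOSL1 and MYC with DMSO in log2 CPM (prior count 2) in the 3 samples of each line, with the mean as a bar, control lines in grey and a dotted line between the overexpression and CRISPR arms. EGR1 and MYC are lowest in GFP cells, and CDKN2A cells stand above GFP cells for EGR1, FOSL1 and MYC.

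Over the 4 treatments together, with treatment as a factor, the lines were compared with their controls again. In FAT1 cells 7 members were called (49.1% of all genes), 6 higher and 1 lower. FOS was at 13.7 to 108 CPM (median 87.9, n = 12) against 6.72 to 56.5 (29.6, n = 12) in GFP cells, ranges that overlap, with a log2 fold change of 1.34 ± 0.15. The other higher members were EGR1 at 0.97 ± 0.12, JUNB at 0.80 ± 0.10, MYC at 0.68 ± 0.12, FOSL2 at 0.56 ± 0.07 and JUND at 0.39 ± 0.08, while FOSL1 was lower (-0.77 ± 0.24, adjusted p = 0.00495). The FOSL1 call was lost without replicate 2 (-0.60, adjusted p = 0.11), and JUND went to 0.00 after the correction for GC content and length. In CDKN2A cells 6 members were called (58.7% of all genes), all higher. MYC was at 143 to 256 CPM (median 213) against 26.1 to 103 (59.7), or 1.65 ± 0.11, and the lines did not overlap. EGR1 was at 1.24 ± 0.12, FOSL1 at 1.19 ± 0.20, JUNB at 0.85 ± 0.10, FOS at 0.67 ± 0.16 and FOSL2 at 0.36 ± 0.07. JUND, not called as counted, was lower after the correction (-0.27, adjusted p = 3.91e-04). FOSL1 was thus lower in one knockout line and higher in the other, against the same GFP samples.

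In NRF2 cells FOSL1 was at 2.32 to 31.6 CPM (median 16.1) against 8.85 to 59.3 (23.6) in HcRed cells, overlapping ranges. NRF2 cells had less FOSL1 (-1.01 ± 0.22, adjusted p = 1.16e-04), FOS (-0.55 ± 0.14, 0.00196) and EGR1 (-0.28 ± 0.10, 0.0358) than HcRed cells, 3 members called where 22% of all genes were. The FOS call was lost without replicate 3 (-0.40, adjusted p = 0.0973) and the EGR1 call in 6 of 12 alternatives: without replicate 2 (0.145) or 3 (0.104), without the libraries under 500000 reads (0.0845), with DESeq2 (0.0997) or its size factors (0.0541), and with no filter on low counts (0.0911). FGFR1 cells had less MYC (-0.45 ± 0.10, adjusted p = 2.92e-04), the 1 member called (14.2% of all genes). NRG1 cells had more FOSL1 (0.86 ± 0.18), JUNB (0.30 ± 0.09) and EGR1 (0.28 ± 0.10) (12.5% of all genes called), the JUNB call being lost without replicate 2 (0.21, adjusted p = 0.220). EGR1 kept its call in 9 of 12 alternatives, being lost without replicate 1 (0.10, adjusted p = 0.621) or 2 (0.116) and with no filter on low counts. PIK3CA cells had more FOSL1 (0.59 ± 0.18), EGR1 (0.39 ± 0.10) and JUNB (0.30 ± 0.09) and less FOSL2 (82.0 to 133 CPM, median 111, against 90.5 to 221, median 170; -0.50 ± 0.07, adjusted p = 8.30e-09), 4 members where 27.9% of all genes were called. In PIK3CA cells FOSL1 was lost without replicate 1 (0.30, adjusted p = 0.382), as was EGR1 (0.0539), and JUNB without replicate 2 (0.0820). These comparisons share the HcRed samples.

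Other early response genes rose beside the members. Of 21 tested genes of that list, 15 rose and none fell with CSC or with BaP (limma-voom). With NNK 15 rose and 1 fell, namely BTG2 at -0.45 ± 0.11, named after its value was seen. Of all genes 28%, 26.1% and 26.1% rose with CSC, BaP and NNK, and 55.1%, 51% and 51.8% were called in either direction. The list's median log2 fold change was 0.59, 0.52 and 0.47, against 0.003, 0.012 and 0.001 over all genes. After the correction for GC content and length 12, 11 and 10 of the list rose and 0, 0 and 1 fell. The largest rises with CSC were DUSP1, a phosphatase that switches off MAP kinases (1.51 ± 0.05), MAFF (1.39 ± 0.15) and PHLDA1 (1.20 ± 0.07). With BaP they were NR4A1, an early nuclear receptor (1.20 ± 0.20), MAFF (1.15 ± 0.15) and DUSP1 (1.11 ± 0.05). With NNK they were NR4A1 (1.74 ± 0.20), CTGF, which encodes a matricellular protein (1.39 ± 0.13), and DUSP1 (1.31 ± 0.05).

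In the lists that follow, rises are to be read against the share of all genes that rose, and all calls against the share called in either direction. After the correction for GC content and length, 16.8%, 12% and 8.39% of all genes rose with CSC, BaP and NNK. The shares called in either direction were then 33.5%, 24.8% and 17.5%. Among partners of the AP-1 subunits, of 12 tested bZIP partners, 3 rose and 3 fell with CSC, 4 and 2 with BaP, and 3 and 2 with NNK, with medians of -0.00, -0.05 and -0.01. After the correction 2, 2 and 1 of them rose and 3, 3 and 2 fell. MAFG, a small Maf protein that pairs with NRF2 and with Fos proteins, rose by 0.98 ± 0.07, 0.94 ± 0.07 and 0.41 ± 0.07, and CREB1, which binds the cAMP response element, was lower (-0.51 ± 0.05, -0.42 ± 0.05 and -0.42 ± 0.05). Of 10 AP-1 target genes, 7 rose and 1 fell with CSC, 4 and 1 with BaP and 2 and 1 with NNK, with medians of 0.59, 0.25 and 0.20. After the correction 7, 3 and 1 of them rose and 1, 2 and 1 fell. HMOX1, which encodes haem oxygenase, rose with CSC (0.93 ± 0.20) and BaP (1.01 ± 0.20), and HBEGF, an EGF receptor ligand, by 0.84 ± 0.14 and 0.56 ± 0.15. HMOX1 is also a target of NRF2.

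Among the genes around MYC, of 19 tested MYC target genes, 7 rose and 8 fell with CSC, 4 and 9 with BaP, and 4 and 8 with NNK, with medians of -0.02, -0.14 and -0.09. Among those that fell, NCL, a nucleolar protein, was at -0.57 ± 0.03, -0.40 ± 0.03 and -0.32 ± 0.03 and NPM1, which acts in ribosome assembly, at -0.53 ± 0.04, -0.48 ± 0.04 and -0.40 ± 0.04. With the trend of GC content and length removed, 4, 1 and 0 of the MYC target genes rose and 6, 10 and 6 fell. Of the 12 tested genes of the MYC, MAX and MXD network, 4 rose and 3 fell with CSC, 4 and 2 with BaP and 5 and 1 with NNK, led by MNT, a repressor that competes with MYC for MAX, at 0.74 ± 0.10, 0.60 ± 0.10 and 0.56 ± 0.10. After the correction for GC content and length MNT was at 0.34, 0.25 and 0.16. Of the network 2, 2 and 1 genes then rose and 1, 1 and 0 fell. Of the 16 kinases and factors upstream of the early genes, 6 rose with each chemical and 3, 6 and 4 fell, with medians of -0.01, 0.00 and -0.03. After the correction 6, 2 and 2 of them rose and 0, 0 and 1 fell. MAP2K2, the kinase MEK2, was at 0.51 ± 0.05 with CSC, and at 0.05 after the correction.

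Between lines, over all treatments, where 58.7% of all genes were called in CDKN2A, 49.1% in FAT1, 27.9% in PIK3CA and 22% in NRF2 cells, CDKN2A cells had 12 of the 19 MYC target genes higher and 2 lower than GFP cells, with a median of 0.26 against 0.001 over all genes, led by ODC1, the first enzyme of polyamine synthesis (1.56 ± 0.06). PIK3CA cells had 12 higher and none lower than HcRed cells with a median of 0.32 against -0.008 over all genes, although MYC itself was not called there. The first of these 12 by size was TERT (1.75 ± 0.05), a gene that is also introduced to immortalize cells, followed by CCND2 (1.35 ± 0.06), a cyclin of early cell cycle entry, and ODC1 (0.68 ± 0.06). Of the other early genes 13 were higher and 1 lower in CDKN2A cells, led by CTGF (2.99 ± 0.25) and CYR61 (2.09 ± 0.13), and in FAT1 cells 9 were higher and 2 lower, led by CYR61 (1.49 ± 0.13). In NRF2 cells 1 was higher and 4 lower, PHLDA1 at -1.30 ± 0.14 among them. The shares of early genes called in these 3 lines (14, 11 and 5 of 21) lay near those of all genes.

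The genes most like each member over the 32 combinations of line and treatment were found among the 10062 genes that averaged 10 or more reads, by Pearson correlation of mean log2 CPM. The combinations share lines, treatments and sequencing run, so the values describe these libraries and carry no test. FOS was most like DUSP1 (0.91), EGR1 (0.91) and NACC1 (0.87), and EGR1 most like DUSP1 (0.91), FOS (0.91) and IER2 (0.87). FOSL1 followed TINAGL1 (0.93), PLK3 (0.92) and ARHGDIA (0.91), and FOSL2 followed GAA (0.87), AHDC1 (0.85) and EPHX1 (0.85). JUN was most like CYP1B1 (0.85), a known target of the aryl hydrocarbon receptor, then MAFG (0.83) and TPRA1 (0.81). JUNB was most like SLC16A3 (0.89), MIDN (0.89) and SLC3A2 (0.87). JUND was most like FKBP8 (0.94), PNPLA6 (0.94) and GIT1 (0.93), and MYC like PLEC (0.94), BCL9L (0.93) and ID1 (0.92).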

How the data were processed

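The authors made each sample's file of raw counts per RefSeq gene from pooled single-end 75 bp SFL reads with cutadapt 1.12, FastQC 0.11.5, STAR 2.5.2b and featureCounts on hg19 (build and versions from the submitters' processing notes). Strand and multimapping settings were not given in the sources used here, and both could move reads between overlapping or duplicated genes. The deposited counts were used unchanged. Library totals ran from 287446 to 2116383 reads, so that 3 reads stood for 10.44 CPM of the plain total in the smallest library and 1.418 in the largest. No floor on single samples was applied. The counts are of reads without molecular identifiers.

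Groups came from the labels. The test was limma-voom (limma 3.58.1, edgeR 4.0.16 TMM scaling, R 4.3.3) on genes with a mean count above 1, with Benjamini-Hochberg adjustment over all tested genes and a threshold of 0.05. Each chemical was compared with DMSO over all lines and within lines, each line with its control with DMSO and over treatments, and a line by treatment term was tested on all 95 samples. Log2 CPM used a prior count of 2. DESeq2 1.42.0 and the quasi-likelihood test of edgeR served as alternatives, as did size factors from DESeq2, a mean count of 10 or more, no filter, a replicate block, removal of each sample's trend with exonic GC content and length (loess, span 0.3; 13487 of 14384 genes had values), each replicate left out, all 95 samples in 1 fit, libraries under 500000 reads left out, and counts summed per line and treatment. Some of the fits were also run on simulated counts, with the same excess spread for every gene and no trend with GC content or length. Such counts cannot show how the fits behave under the trend seen in these libraries. Replicate libraries differed by more than sampling noise in all 94 pairs (chi-square per degree of freedom 1.128 to 2.653).

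The members and lists (other early genes, bZIP partners, MYC network, MYC targets, AP-1 targets, upstream kinases and factors) were chosen with earlier results of these data known. All members were described. Of each list, at most 3 called genes with the largest absolute change per comparison were eligible to be named, and for likeness the 3 genes with the highest correlation. The result of 1 list gene that these rules would name is not reported here.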

Additional observations from a re-analysis of the deposited data

Results flagged for a closer look

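In 3 cases the response of a line to a chemical differed from that of its control line by a test of the difference itself (limma-voom, all 95 samples). Every perturbed line was tested in this way with each chemical. The p-values were adjusted over genes within each such comparison and not across them. These differences were not refitted under the alternatives. The response of MYC to BaP was lower in NRF2 than in HcRed cells by a log2 difference of -1.10 ± 0.19 (SE, adjusted p = 2.91e-04), and its response to CSC by -0.80 ± 0.19 (adjusted p = 0.0412). Both use the same DMSO samples, in which MYC was higher in NRF2 than in HcRed cells in every sample. The response of EGR1 to CSC was lower in CDKN2A than in GFP cells by -1.39 ± 0.28 (adjusted p = 0.00439), with EGR1 higher in CDKN2A cells in every DMSO sample. The source of these differences was not tested.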

How the results depend on the processing

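Of the 336 alternative fits of the called responses to a chemical over all lines, 334 kept direction and call, and the other 2 were JUND with CSC under the GC and length correction, without and with the block. Counts of members called moved as follows, and except where a value or the alternative's construction is given above the cause was not tested. Over all treatments, NRF2 against HcRed went from 3 to 5 with the GC and length correction, with the replicate block and that correction, and with edgeR, and to 2 with DESeq2 size factors, with no filter and without the libraries under 500000 reads, and FGFR1 from 1 to 2 with edgeR and with DESeq2. Leaving out a replicate gave 1 to 4 for NRF2, 1 to 3 for NRG1, 2 to 4 for PIK3CA and 6 to 7 for FAT1, and 2 to 4 for the line by treatment term. The other alternatives gave 2 to 4 for NRG1, 4 to 5 for PIK3CA, 6 to 7 for FAT1 and for CDKN2A, and 4 to 5 for that term. With DMSO, FAT1 against GFP went from 4 to 1 with the correction, with or without the block, to 2 with DESeq2 and to 2 to 4 without a replicate. NRF2 went from 1 to 2 with the block, the correction or both, and to 1 to 2 without a replicate. NRG1 went from 2 to 1 in the fit of all 95 samples, to 0 with DESeq2 and to 1 to 2 without a replicate. PIK3CA went from 1 to 2 with the block and correction, to 0 with DESeq2 and to 0 to 3 without a replicate. GFP against HcRed gave 2 to 3 without a replicate. Within lines, the 58 calls with BaP went to 37 with the correction and the 53 with NNK to 24, or 25 with the block added. The share of all genes that rose fell too with the correction, as given above. Without a replicate the calls were 61 with CSC, 49 to 53 with BaP and 40 to 42 with NNK.

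Among values called as counted or under the alternative, the sign turned for JUND and JUNB and no other member. JUND over treatments was -0.00 in FAT1 cells with block and correction, and in CDKN2A cells -0.27 with the correction and -0.28 with the block added. Within PIK3CA cells JUND was -0.01 with CSC under block and correction, and with BaP -0.08 under the correction and -0.09 with the block. JUNB with NNK was -0.14 in GFP cells under the correction and -0.11 with the block, and in FAT1 cells -0.06 and -0.03. Replicate numbers did not pair the samples: the mean correlation of same-numbered deviations was 0.005 over 1457 pairs, and no comparison had every pair over 0.1. FOSB, at 9 reads or fewer per sample, and single line tests of 3 samples are limited by depth.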
